A study of Homo sapiens with 12 samples.

Results

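The genes described here encode eIF2, its exchange factor eIF2B and a pair of the kinases that phosphorylate eIF2. They are EIF2S1, EIF2S2 and EIF2S3 (the α, β and γ subunits of eIF2), EIF2B1 to EIF2B5 (the α, β, γ, δ and ε subunits of eIF2B), and EIF2AK3 and EIF2AK4 (the kinases PERK and GCN2). These 10 genes were chosen by symbol, out of 24559 symbols in the deposited transcript table, and all 10 were among the 16538 genes that passed the filter on low counts. Polysome-associated RNA was sequenced from 3 established triple-negative breast cancer (TNBC) lines, with 2 libraries in each of 6 groups. Apart from constructs and selection, the methods name only a short cycloheximide treatment to hold ribosomes on mRNA before lysis. In MDA-MB-231 and SUM159, cells with TRMT112 knockdown by shRNA (KD) were compared with control cells labelled EV. According to the methods, the control of the knockdown carried a non-silencing shRNA in the same vector. In BT549, cells overexpressing TRMT112 from an open reading frame plasmid (OE) were compared with cells carrying the empty plasmid (EV). Knockdown cells were selected with puromycin and overexpressing cells with G418, and neither source used here says whether the selected cells were pools or clones. TRMT112 is a small protein that activates several methyltransferases acting on rRNA, tRNA and translation factors. The comparisons ask how a lower or higher TRMT112 level changed the mRNAs found on polysomes.

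eIF2 carries the initiator tRNA to the small ribosomal subunit as a complex with GTP, and it leaves the ribosome bound to GDP once the start codon has been found. eIF2B then exchanges GDP for GTP so that eIF2 can be used again. When a kinase phosphorylates the α subunit on a single serine, eIF2 binds eIF2B tightly and blocks it, so that general initiation falls while a few mRNAs with upstream reading frames, such as ATF4, are translated better. PERK responds to unfolded proteins in the endoplasmic reticulum, and GCN2 to uncharged tRNA and stalled ribosomes. RNA counts report neither phosphorylation nor protein amounts. These libraries measure an mRNA's share of the sequenced polysome RNA, so that mRNA abundance and ribosome loading cannot be told apart here. Because counts were scaled within each library, a rise or fall below is relative to other mRNAs and gives no amount on polysomes. The paper reports lower polysome peaks in KD cells and higher ones in OE cells.

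The stretch of EIF2S1 that encodes the regulated serine is shown because each kinase described here acts on it. It lies in exon 2 of 8 of EIF2S1-201 (GRCh38, plus strand, chr14:67364861-67364983), and the capitals mark the codon for serine 51, counted without the initiator methionine (52 with it), at chr14:67364921-67364923.
EIF2S1 coding stretch: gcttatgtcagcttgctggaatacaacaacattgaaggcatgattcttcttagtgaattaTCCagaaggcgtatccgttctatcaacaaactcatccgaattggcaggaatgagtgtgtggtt
The promoters of EIF2S1 and EIF2AK3 are shown because these members were the ones called in a single direction in all 3 comparisons of KD or OE with EV, EIF2S1 lower and EIF2AK3 higher. Each is the 250 bases before the RefSeq start (GRCh38.p14), EIF2S1 at chr14:67360078-67360327 on the plus strand and EIF2AK3 at chr2:88627465-88627714 on the minus strand. The capitals mark matches to an NRF1-type motif (GCGCNTGCG) in EIF2S1, where both matches overlap, and to an ETS-type motif (CCGGAAG) in EIF2AK3.
EIF2S1 promoter: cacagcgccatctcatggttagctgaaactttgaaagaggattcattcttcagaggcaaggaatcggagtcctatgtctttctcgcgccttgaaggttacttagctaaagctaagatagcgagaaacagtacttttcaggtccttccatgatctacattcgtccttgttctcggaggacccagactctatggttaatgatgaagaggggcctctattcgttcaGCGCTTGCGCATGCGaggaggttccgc
EIF2AK3 promoter: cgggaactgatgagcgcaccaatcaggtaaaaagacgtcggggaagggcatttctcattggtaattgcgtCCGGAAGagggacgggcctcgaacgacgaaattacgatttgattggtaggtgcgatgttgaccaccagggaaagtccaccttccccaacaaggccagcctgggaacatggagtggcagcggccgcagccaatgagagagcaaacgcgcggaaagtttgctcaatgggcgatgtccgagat
A promoter was listed for 9 of the 10 members, all but EIF2S2, and 5 motifs were searched on both strands. The NRF1-type motif was present in 3 of these 9 (EIF2B3, EIF2B5 and EIF2S1), against 6.5% of 35097 promoters. The ETS-type motif was present in 2 of 9 (EIF2AK3 and EIF2B1), against 8.5% of promoters, and the E-box (CACGTG) in 1 of 9 (EIF2B3), against 6.3%. The CARE motif (TGATGNAA) and the CRE motif (TGACGTCA) were not found in these windows for the members, and were present in 3.1% and 1.6% of all promoters. Members were counted by gene, while the shares of all promoters count windows, and EIF2B4 had more than 1 window. The EIF2S1 window overlaps the gene ATP6V1D and the EIF2AK3 window overlaps EIF2AK3-DT. A match describes letters only.

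Each library held between 22954226 and 27434677 expected counts. TRMT112 followed the labels. Its normalized counts, meaning counts divided by the relative TMM-scaled library size, were 4147 and 3938 in MDA-MB-231 EV and 1764 and 1682 in KD, 6332 and 6566 in SUM159 EV and 3909 and 3699 in KD, and 3076 and 3087 in BT549 EV and 4286 and 4319 in OE. The mesenchymal marker VIM was at or above 16820.5 normalized counts in all 12 libraries, PGR was at 0 outside BT549 EV, ESR1 was not listed, and ERBB2 was between 1385 and 3420.5. No transcript at 0 in every BT549 library was listed, so the absence of ESR1 says nothing about MDA-MB-231 or SUM159. Missing marks in the columns of MDA-MB-231 and SUM159 were counted as 0, so PGR at 0 there may stand for missing values. The epithelial marker EPCAM reached at most 72.1, the leukocyte marker PTPRC at most 13.8, and the endothelial marker PECAM1 at most 102.9 normalized counts. Replicates differed by a median of 0.081 to 0.099 on the log2 scale across genes. The labels do not say whether they were separate cultures, so p-values measure only the spread between these libraries.

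Before any comparison of KD or OE, levels were compared between genes per transcript length, as TPM, the expected count of each transcript over its annotated length, scaled to the same total in each library. Summed over 3 eIF2 genes, 5 eIF2B genes and 2 kinase genes, eIF2 lay above eIF2B, and eIF2B above EIF2AK3 and EIF2AK4, in all 6 groups. Single subunits did not keep that order. The kinase genes EIF2AK1 and EIF2AK2 are not members and were not in these sums. In MDA-MB-231 EV, EIF2S2 was at 552 ± 4.0 TPM (SD, n = 2), EIF2S1 at 306 ± 24.2 TPM and EIF2S3 at 95.1 ± 4.02 TPM, below EIF2B2 (175 TPM) and EIF2B1 (105 TPM). In SUM159 EV the order was different, with EIF2S3 at 325 ± 2.31 TPM, EIF2S2 at 312 ± 1.59 TPM and EIF2S1 at 140 ± 2.67 TPM. In BT549 EV, EIF2S2 was at 193 ± 8.24 TPM, EIF2S1 at 146 ± 0.56 TPM and EIF2S3 at 111 ± 1.87 TPM. The subunits of this one-to-one complex thus stood 5.8 times apart per length in MDA-MB-231 EV, 2.31 times in SUM159 EV and 1.74 times in BT549 EV. With protein-coding transcripts only, these spreads were 6.61, 6.49 and 4.46 times, so the contrast between lines depended on which transcripts were counted. Of the member kinases, EIF2AK4 was at 39.1 ± 0.0935, 52.4 ± 0.492 and 25.7 ± 0.711 TPM in the EV cells of MDA-MB-231, SUM159 and BT549. EIF2AK3 was below it in each line, at 8.93 ± 0.197, 11.4 ± 0.201 and 3.22 ± 0.185 TPM.

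Within eIF2B, EIF2B4 was the lowest subunit per length in MDA-MB-231 EV (41.9 ± 0.539 TPM) and SUM159 EV (45.2 ± 2.04 TPM), and EIF2B5, which encodes the catalytic subunit, was the lowest in BT549 EV (16.6 ± 0.013 TPM). EIF2B2 was the highest in MDA-MB-231 EV at 175 ± 1.74 TPM and in BT549 EV at 154 ± 2.09 TPM. That position rests on short retained-intron transcripts, described with the transcript shares. With protein-coding transcripts only, EIF2B1 was the highest eIF2B subunit in all 6 groups, EIF2B2 was the lowest in 5 of the 6, and EIF2S1 was the lowest eIF2 subunit in all 6.

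Summed over subunits, eIF2 stood at 953 ± 16.2 TPM and eIF2B at 456 ± 4.07 TPM in MDA-MB-231 EV, a ratio of 2.09 ± 0.017. In MDA-MB-231 KD the ratio was 1.99 ± 0.12. It was 2.02 ± 0.037 in SUM159 EV and 1.58 ± 0.011 in SUM159 KD. In BT549 it was 1.34 ± 0.0017 in EV and 2.04 ± 0.1 in OE. The ratio was thus lower in KD than in EV in SUM159 and higher in OE than in EV in BT549 without overlap between libraries, while in MDA-MB-231 the difference of the means was smaller than the SD of the KD libraries. With protein-coding transcripts only, the ratios were 2.71, 2.62, 2.59, 2.01, 2.03 and 2.81 in the same order of groups. No test was run on these ratios.

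**Figure D1:**
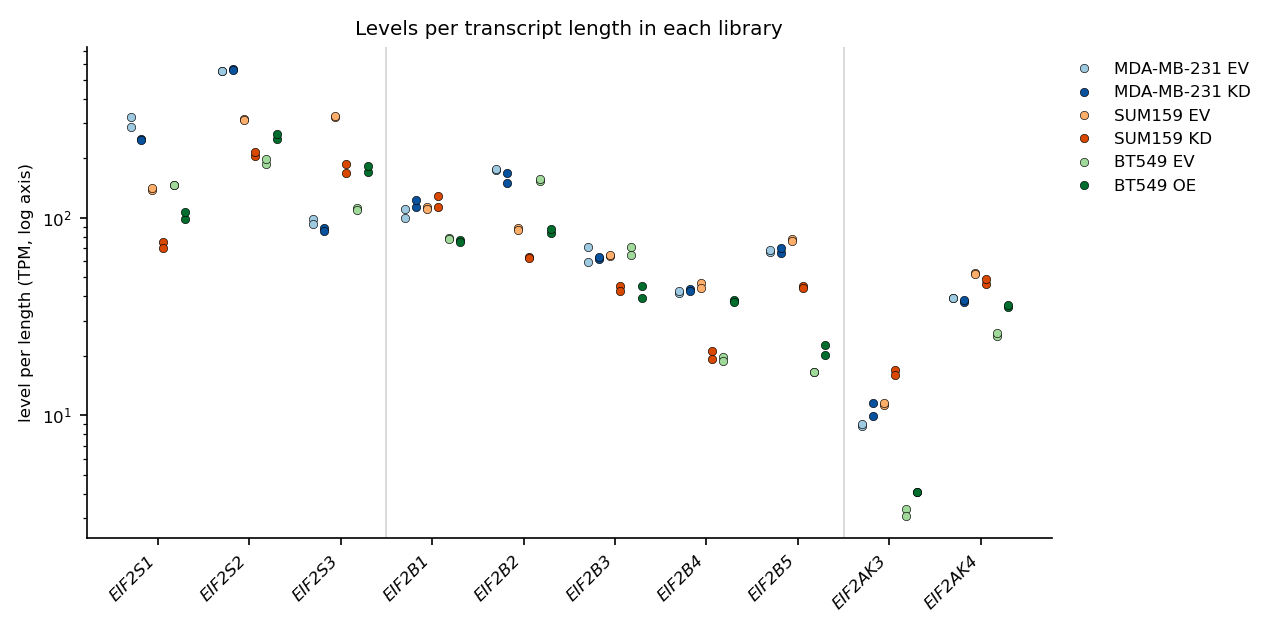
Level per transcript length (TPM, log axis) of each member, with 1 point per library and a colour per group; vertical lines separate eIF2, eIF2B and the kinases. EIF2S2 is the highest eIF2 subunit in MDA-MB-231 (552 TPM in EV) and EIF2AK3 the lowest member in every group, down to 3.22 TPM in BT549 EV.

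The 3 lines differed in these mRNAs before any change of TRMT112. Line and culture medium cannot be told apart in these comparisons, since the media differed. By the methods, the control vector and selection drug of BT549 also differed from those of the other lines. These cannot be told apart from line in the comparisons with BT549 EV. Between SUM159 EV and MDA-MB-231 EV 9 of the 10 members were called (75.7% of all genes were), between BT549 EV and MDA-MB-231 EV 8 (79.5% of all genes), and between BT549 EV and SUM159 EV 9 (78.4% of all genes). The members were therefore called about as often as genes at large. EIF2S3 showed the largest difference: its normalized counts were 3019 and 2999 in MDA-MB-231 EV, 4668 and 4669.5 in BT549 EV, and 12819.7 and 12570.3 in SUM159 EV. SUM159 EV was thus 4.22 times above MDA-MB-231 EV (log2 difference 2.08, SE 0.03, edgeR adjusted p = 8.08e-24), and BT549 EV lay between. EIF2B5 had the opposite extreme, with 648 and 625 normalized counts in BT549 EV against 1943 and 1996 in MDA-MB-231 EV and 2541 and 2528 in SUM159 EV. BT549 EV was 1.63 below MDA-MB-231 EV on the log2 scale (SE 0.05, edgeR adjusted p = 2.33e-18).

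The order of the other members across the EV cells can be given from the same fits. EIF2S2 fell from MDA-MB-231 to SUM159 (log2 difference −0.62) and again to BT549 (−0.50). EIF2S1 was highest in MDA-MB-231, and SUM159 and BT549 did not differ beyond their spread (0.02, 95% confidence interval −0.06 to 0.11), though BT549 was called higher with RLE size factors (0.10, adjusted p = 0.0268). EIF2B2 was highest in BT549, 0.21 above MDA-MB-231 and 1.05 above SUM159 on the log2 scale, but its difference from MDA-MB-231 was not called with protein-coding transcripts only (0.16, adjusted p = 0.0958). EIF2B3 was highest in BT549 too, and SUM159 and MDA-MB-231 did not differ beyond their spread (0.10, interval −0.02 to 0.23) unless MDA-MB-231 EV replicate 2 was left out (0.20, adjusted p = 0.0123). EIF2B1, EIF2B4, EIF2AK3 and EIF2AK4 were all highest in SUM159. Of these, EIF2B4 (log2 difference −0.72) and EIF2AK3 (−1.23) were lower in BT549 than in MDA-MB-231, while EIF2B1 (−0.05) and EIF2AK4 (−0.08) did not differ there beyond their spread. Both were called lower in BT549 with protein-coding transcripts only (−0.11, adjusted p = 0.0152, and −0.09, adjusted p = 0.0395), and EIF2AK4 also with a mean of at least 50 counts (−0.12, adjusted p = 0.00781). Scaling by library size alone moved the median of all genes from −0.03 to −0.34 between BT549 EV and MDA-MB-231 EV and from −0.06 to −0.27 between BT549 EV and SUM159 EV, and it turned the direction for EIF2B2 in the former (−0.11) and for EIF2S1 in the latter (−0.19). Under it, BT549 was no longer called above MDA-MB-231 (0.10) or SUM159 (0.11) for EIF2B3, and BT549 was called below MDA-MB-231 for EIF2B1 (−0.36) and EIF2AK4 (−0.39).

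In MDA-MB-231, KD changed these mRNAs little. Of the 10 members, 3 were called higher (21.2% of all genes were) and 1 lower (16.5% of all genes), and the median log2 fold change of the members was 0.08, against 0.00 for all 16538 genes. EIF2S1 was the member that fell, from 4598 and 4819 normalized counts in EV to 3939 and 3822 in KD. The EV and KD libraries did not overlap, and the log2 fold change was −0.28 (SE 0.04, edgeR adjusted p = 3.06e-06). EIF2S2 rose from 16481 and 16296 to 17896 and 17571 normalized counts, a log2 fold change of 0.11 (SE 0.03, adjusted p = 0.00319). EIF2S3 stood at 3019 and 2999 in EV and 2948 and 3029 in KD, so that its groups overlapped (log2 fold change −0.01, interval −0.09 to 0.07). The subunits of eIF2 therefore did not move together in this line.

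Within eIF2B in MDA-MB-231, EIF2B1 rose from 2706 and 2585 normalized counts to 2950.1 and 3031 (log2 fold change 0.18, SE 0.04, adjusted p = 0.00143). EIF2B1 encodes the subunit that holds the symmetric eIF2B complex together. The log2 fold changes of EIF2B2, EIF2B3, EIF2B4 and EIF2B5 were −0.11, 0.01, 0.13 and 0.10, with adjusted p between 0.0778 and 0.947. EIF2B2 was called lower with protein-coding transcripts only (−0.24, adjusted p = 0.0456) and with a mean of at least 50 counts (−0.12, adjusted p = 0.0317). Library size alone gave that call too (−0.20, adjusted p = 0.00161). The EIF2B2 log2 fold change was −0.18 without MDA-MB-231 KD replicate 2 and −0.04 without KD replicate 1. EIF2AK3 rose from 452 and 458 to 552 and 560 normalized counts, a log2 fold change of 0.29 (SE 0.07, adjusted p = 0.0034). EIF2AK4 was at 2243 and 2266 in EV and 2328 and 2367 in KD (log2 fold change 0.06, adjusted p = 0.265). Scaling by library size alone ended the calls of EIF2S2 (0.02, adjusted p = 0.575) and EIF2B1 (0.09, adjusted p = 0.0972). That scaling also turned the split of all genes in this comparison from 3505 higher and 2735 lower to 2363 higher and 4082 lower.

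**Figure D2:**
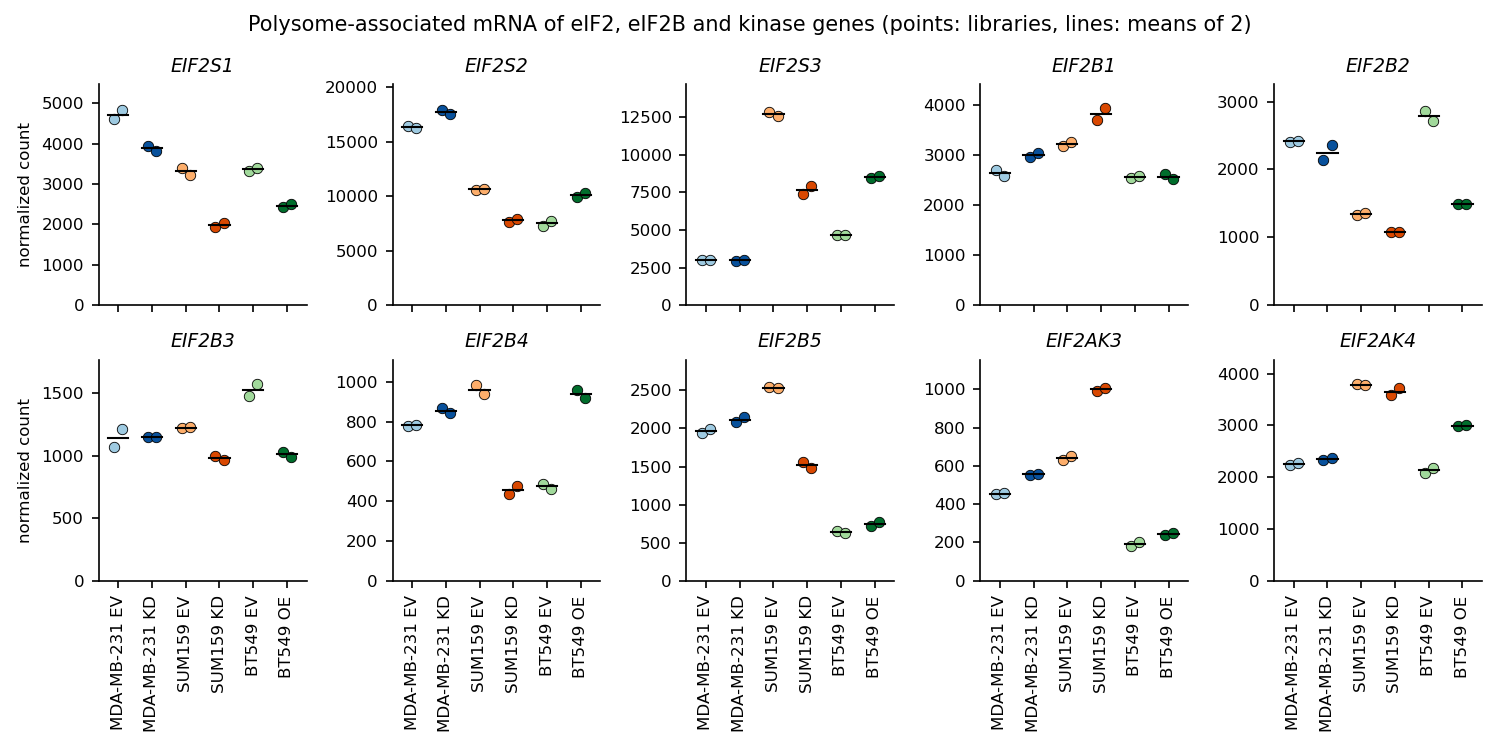
Normalized counts (linear axes from 0) of the 10 members in each library, with 2 points and their mean line per group. EIF2S1 is lower and EIF2AK3 higher in KD or OE than in EV in every line, while EIF2S3 and EIF2B4 lie lower in SUM159 KD and higher in BT549 OE than in the matching EV.

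In SUM159, KD lowered most of the members. Of the 10, 7 were called lower (31.4% of all genes were) and 2 higher (28.6% of all genes), and the median log2 fold change was −0.38, against 0.00 for all genes. All 3 subunits of eIF2 fell. EIF2S3, the subunit that binds GTP and the initiator tRNA, went from 12819.7 and 12570.3 normalized counts in EV to 7399 and 7921 in KD, a log2 fold change of −0.73 (SE 0.03, edgeR adjusted p = 2.5e-15). EIF2S1 went from 3390.1 and 3232 to 1930 and 2038, a log2 fold change of −0.74 (SE 0.04, adjusted p = 2.87e-13). EIF2S2, which binds the GTPase activator EIF5, went from 10607 and 10659 to 7653 and 7947, a log2 fold change of −0.45 (SE 0.03, adjusted p = 8.41e-12). For each of the 3 the KD libraries lay below the EV libraries.

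Among the eIF2B subunits in SUM159, 4 fell and EIF2B1 rose. EIF2B4 was at 983 and 938 normalized counts in EV and 439 and 475 in KD, a log2 fold change of −1.07 (SE 0.07, adjusted p = 2.26e-12). EIF2B5 was at 2541 and 2528 in EV and 1561 and 1486 in KD, a log2 fold change of −0.74 (SE 0.05, adjusted p = 1.62e-12). EIF2B2 and EIF2B3 fell by less, with log2 fold changes of −0.31 (SE 0.05, adjusted p = 2.51e-05) and −0.32 (SE 0.06, adjusted p = 9.07e-05). With protein-coding transcripts only, EIF2B2 was at −0.17 and no longer called (adjusted p = 0.166). EIF2B1 rose from 3177 and 3255 to 3685 and 3930.0, a log2 fold change of 0.24 (SE 0.04, adjusted p = 1.17e-05). The subunits of the complex thus changed in both directions.

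The kinases did not follow the subunits in SUM159. EIF2AK3 rose from 633 and 653 normalized counts to 991 and 1008 (log2 fold change 0.64, SE 0.07, adjusted p = 1.71e-08). EIF2AK4 was at 3793 and 3782 in EV and 3586 and 3715 in KD (log2 fold change −0.05, interval −0.13 to 0.02, adjusted p = 0.221). The endothelial marker PECAM1 was higher in these KD libraries, at 88.7 and 102.9 normalized counts against 24.2 and 25.1 in EV, and the leukocyte marker PTPRC was at 6.05 and 13.8 against about 1.0. Their part in the values of the members was not tested.

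The KD effects of both lines were compared in the same model. Of the 10 members, 8 differed between the lines (50.9% of all genes did), 7 with a lower log2 fold change in SUM159. The largest differences, given as the log2 fold change in MDA-MB-231 minus that in SUM159, were 1.20 for EIF2B4 (SE 0.09, adjusted p = 1.7e-10), 0.84 for EIF2B5 (SE 0.06, adjusted p = 1.46e-10) and 0.72 for EIF2S3 (SE 0.05, adjusted p = 1.81e-11). EIF2S2 and EIF2S1 differed by 0.56 and 0.46, and EIF2B3 and EIF2B2 by 0.33 and 0.21. EIF2AK3 differed the other way, by −0.35 (SE 0.10, adjusted p = 0.00564), with the larger rise in SUM159. EIF2B1 (−0.07, interval −0.19 to 0.05) and EIF2AK4 (0.11, adjusted p = 0.0874) were not called. The remaining TRMT112 was unequal too, with a KD to EV fold of 0.426 in MDA-MB-231 and 0.589 in SUM159. With protein-coding transcripts only, the differences of EIF2B2 (−0.07), EIF2B3 (0.21, adjusted p = 0.0574) and EIF2AK3 (−0.19, adjusted p = 0.317) were no longer called, and that of EIF2B1 became called (−0.15, adjusted p = 0.0253). The difference of EIF2B2 was also lost without MDA-MB-231 KD replicate 2 (0.13, adjusted p = 0.143) and without SUM159 EV replicate 2 (0.19, adjusted p = 0.0636), and with DESeq2 (0.18, adjusted p = 0.0682), library size alone (0.15, adjusted p = 0.0817) or only the groups compared (0.14, adjusted p = 0.109).

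In BT549, OE changed 9 of the 10 members. Of these, 6 rose (35.6% of all genes did) and 3 fell (35.0% of all genes), with a median log2 fold change of 0.28 against 0.02 for all genes. The eIF2 subunits moved apart. EIF2S3 rose from 4668 and 4669.5 normalized counts in EV to 8426 and 8599 in OE, a log2 fold change of 0.87 (SE 0.03, edgeR adjusted p = 1.3e-16). EIF2S2 rose from 7319.6 and 7717 to 9937 and 10270.0, a log2 fold change of 0.43 (SE 0.03, adjusted p = 1.55e-11). EIF2S1 fell from 3325 and 3402 to 2435 and 2502, a log2 fold change of −0.45 (SE 0.04, adjusted p = 1.53e-09). The mRNA of the regulated α subunit was therefore the one of the 3 that was lower in OE.

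Within eIF2B in BT549, the subunits moved in both directions as well. EIF2B4 rose from 487 and 464 normalized counts to 961 and 921, a log2 fold change of 0.98 (SE 0.07, adjusted p = 1.09e-11). EIF2B5 rose from 648 and 625 to 725 and 770 (log2 fold change 0.23, SE 0.06, adjusted p = 0.00229). EIF2B2 fell from 2867 and 2721 to 1495 and 1492, a log2 fold change of −0.90 (SE 0.05, adjusted p = 7.06e-14). EIF2B3 fell from 1481 and 1578 to 1033 and 992 (log2 fold change −0.60, SE 0.06, adjusted p = 8.7e-09). EIF2B1 was at 2546 and 2579 in EV and 2620.1 and 2509.5 in OE, which overlapped (log2 fold change 0.00, interval −0.09 to 0.09). The regulatory subunits encoded by EIF2B1, EIF2B2 and EIF2B4 thus had 3 different outcomes in the same cells.

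Both kinases rose in BT549 OE. EIF2AK4 went from 2089 and 2179 to 2982 and 3009.8 normalized counts, a log2 fold change of 0.49 (SE 0.04, adjusted p = 1.07e-10). EIF2AK3 was low in this line, at 184 and 204 normalized counts in EV and 239 and 248 in OE (log2 fold change 0.33, SE 0.10, adjusted p = 0.00682). Its call was lost without BT549 EV replicate 1 (0.26, adjusted p = 0.079). In these OE libraries VIM was lower too, at 17450.5 and 16820.5 normalized counts against 47330.5 and 47473.5 in EV, and ERBB2 was lower as well, at 1689.9 and 1725 against 3299 and 3420.5. Their part in the values of the members was not tested.

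**Figure D3:**
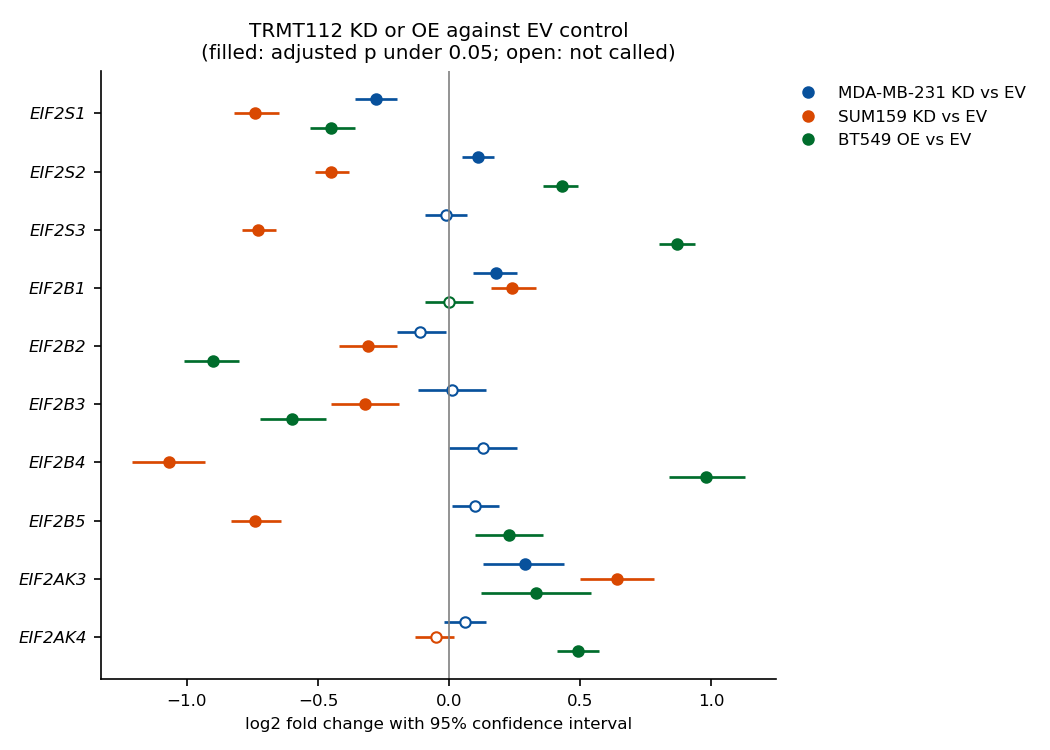
Log2 fold changes of the 10 members in the 3 comparisons with 95% confidence intervals from the edgeR fit; filled points are called (adjusted p under 0.05) and open points are not. SUM159 KD lies left of 0 for EIF2S1 to EIF2S3 and EIF2B2 to EIF2B5, and BT549 OE lies on both sides, from −0.90 for EIF2B2 to 0.98 for EIF2B4.

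The table gives counts per transcript, so the transcripts behind each gene could be described. It listed 107 transcripts of the members, of which 50 were tested and 18 held at least 10% of their gene's counts in some group. EIF2S2 had a single transcript. For EIF2S3, EIF2B1 and EIF2AK4, 1 protein-coding transcript held over 92% of the counts in each group. EIF2B2 was different: its full-length protein-coding transcript EIF2B2-201 (8 exons, chr14:75002921-75012366) held between 34.0% and 38.4% of the counts. The retained-intron transcript EIF2B2-205 (772 bases, chr14:75002933-75005017) held between 43.5% and 47.8%, and EIF2B2-207 (1011 bases, chr14:75006304-75009563), also with a retained intron, between 11.0% and 13.1%. Transcripts not annotated as protein coding thus made up 61.5% to 66.0% of the EIF2B2 counts, against 6.7% to 7.6% of the counts of all transcripts.

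For EIF2S1, the protein-coding EIF2S1-201 (chr14:67360328-67386516) held 63.9% to 81.9% of the counts. The retained-intron EIF2S1-205 (527 bases, chr14:67360353-67374648), which holds the serine codon but ends well before the end of the reading frame, held 12.4% to 24.1%. Both moved with the gene in SUM159 KD, by −0.72 (SE 0.07, adjusted p = 3.9e-05) for EIF2S1-201 and −1.04 (SE 0.14, adjusted p = 0.000506) for EIF2S1-205 on the log2 scale. Both moved with it in BT549 OE too, by −0.42 (adjusted p = 0.000936) and −0.68 (adjusted p = 0.00439). EIF2S1-201 fell in MDA-MB-231 KD (−0.31, adjusted p = 0.0282), where EIF2S1-205 was at −0.15 (adjusted p = 0.73).

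EIF2B3 was split between protein-coding transcripts, EIF2B3-201 (12 exons, 1900 bases) and EIF2B3-203 (10 exons, 1457 bases). EIF2B3-201 held 39.8% ± 2.97 (SD, n = 2) of the counts in MDA-MB-231 EV and 51.5% ± 1.37 in SUM159 EV, and EIF2B3-203 held 49.0% ± 6.78 and 29.7% ± 1.69. In SUM159 KD, EIF2B3-203 fell (log2 fold change −0.79, SE 0.19, adjusted p = 0.0193), and EIF2B3-201 was at −0.02 (SE 0.14, interval −0.33 to 0.30). In BT549 OE, EIF2B3-203 fell as well (−0.81, SE 0.19, adjusted p = 0.00988), and EIF2B3-201 was at −0.42 (adjusted p = 0.0661). Whether both transcripts changed by different amounts was not tested. EIF2B4 was carried by EIF2B4-201 and EIF2B4-205, which fell together in SUM159 KD (−1.05 and −1.14, adjusted p = 0.00105 and 0.00286) and rose together in BT549 OE (1.07 and 0.89, adjusted p = 0.000579 and 0.00849). EIF2B5-226 fell in SUM159 KD (−0.82, adjusted p = 9.73e-05) and rose in BT549 OE (0.44, adjusted p = 0.00601). EIF2AK3-201 rose in SUM159 KD (0.56, adjusted p = 0.0454) and BT549 OE (0.60, adjusted p = 0.0306). In MDA-MB-231 KD it was at 0.43 and not called (adjusted p = 0.254). Its share differed between the BT549 EV libraries (74.3% ± 15.3). Part of the remaining EIF2AK3 counts lay on transcripts annotated for nonsense-mediated decay, such as EIF2AK3-205 with 17.0% ± 3.42 in MDA-MB-231 EV.

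Over the 50 tested transcripts of the members, 1 was called in MDA-MB-231 KD, 12 in SUM159 KD and 14 in BT549 OE. Among all 64066 transcripts tested, 3.7%, 13.2% and 22.1% were called. Division of reads between transcripts was estimated by the authors, and transcripts of a gene share exons. Some members also have exons that overlap the span of a gene on the opposite strand. Among protein-coding genes these were RALY for EIF2S2, and DDX55 and GTF2H3 for EIF2B1. Whether exons of both genes overlap was not examined. The strand setting of the counting is not given in the sources used here, so reads of any exon sequence shared by such pairs cannot be told apart. The copy EIF2S3B had at most 3 counts in a library and the pseudogene EIF2S2P4 at most 58.

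**Figure D4:**
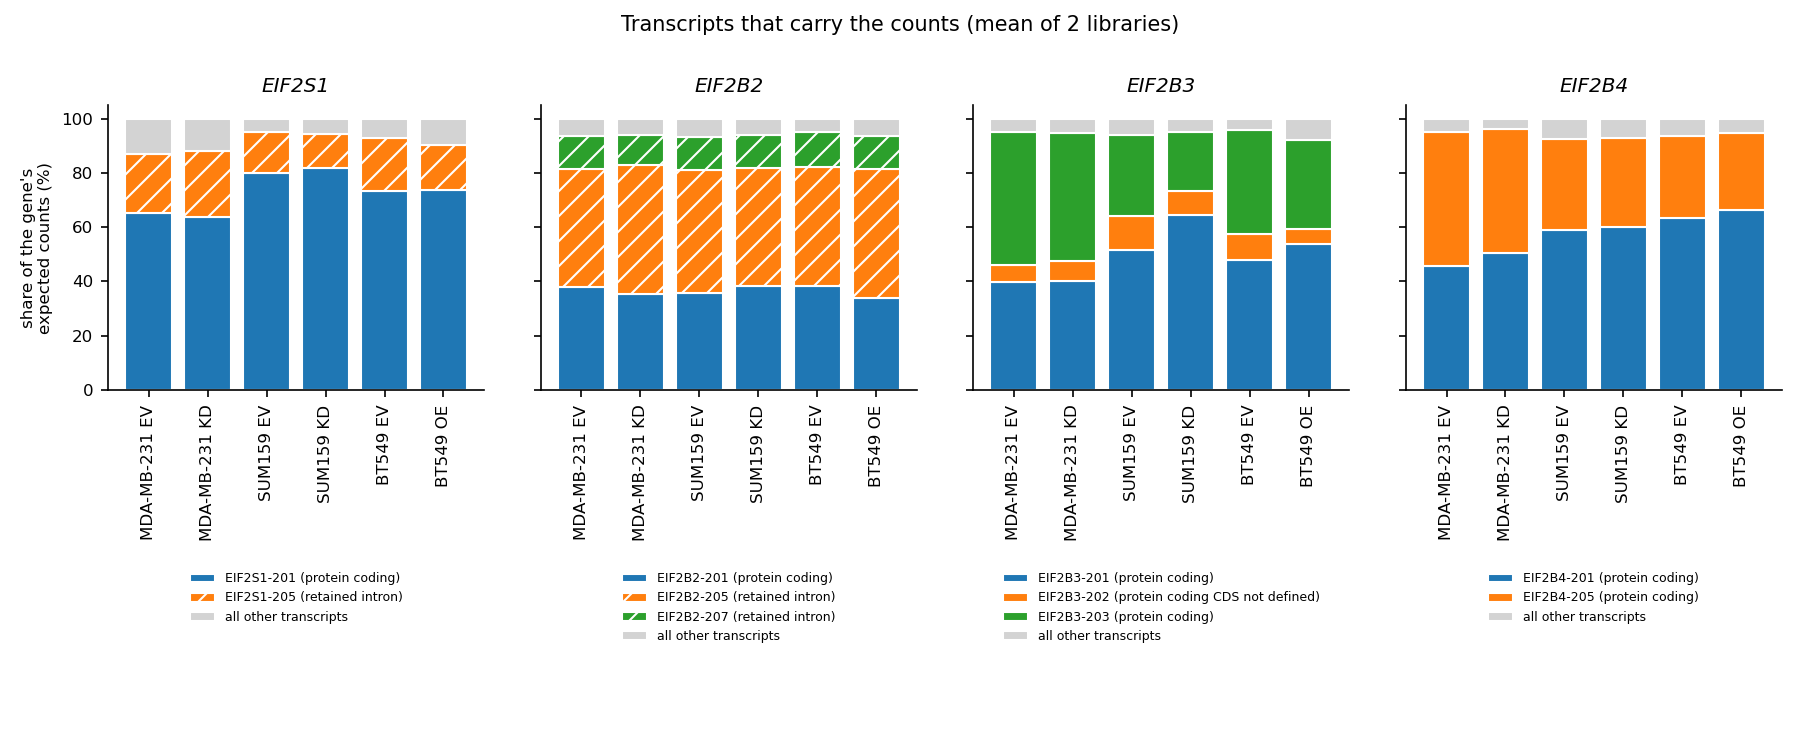
Share of the expected counts (percent, mean of 2 libraries) on each transcript that held at least 10% in some group, for EIF2S1, EIF2B2, EIF2B3 and EIF2B4 in the 6 groups; hatched bars are retained-intron transcripts and grey is the rest. Retained-intron transcripts EIF2B2-205 and EIF2B2-207 hold more of the EIF2B2 counts than the protein-coding EIF2B2-201 in all 6 groups.

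The other genes of the pathway were read from 3 lists. The first held 12 partners of eIF2 in initiation. In MDA-MB-231 KD 3 were called higher and 3 lower, in SUM159 KD 4 and 7, and in BT549 OE 6 and 4. Of all genes, 21.2% were higher and 16.5% lower in MDA-MB-231 KD, 28.6% and 31.4% in SUM159 KD, and 35.6% and 35.0% in BT549 OE. With library size alone, the MDA-MB-231 split became 1 higher and 7 lower. EIF1, which guards start codon selection, fell in each comparison, with log2 fold changes of −0.40, −0.51 and −0.30. EIF5, which activates the GTPase of eIF2, was at −0.06 in MDA-MB-231 KD (adjusted p = 0.254) and fell in SUM159 KD (−0.14) and BT549 OE (−0.56). CDC123, which assembles the eIF2 complex, rose by 0.13 and 0.14 in the KD cells and fell by 0.12 in BT549 OE, on the log2 scale. EIF2A, a separate initiation factor despite its name, was at −0.04 in MDA-MB-231 KD (adjusted p = 0.568), fell in SUM159 KD (−0.50) and rose in BT549 OE (0.17). Of the genes with the smallest p, BZW1 and BZW2, which mimic part of EIF5, were at −0.25 and 0.25 in MDA-MB-231 KD. METAP2, BZW2 and EIF5B were at −0.82, −0.67 and −0.94 in SUM159 KD, and MCTS1, EIF1AX and DENR at 1.08, 0.57 and 0.50 in BT549 OE.

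The second list held 15 other regulators of eIF2α phosphorylation. In MDA-MB-231 KD 4 were called higher and 3 lower, in SUM159 KD 3 and 10, and in BT549 OE 6 and 8, beside the same shares of all genes (21.2% and 16.5%, 28.6% and 31.4%, 35.6% and 35.0%). With library size alone, 2 regulators were higher in MDA-MB-231 KD. PPP1R15A, the stress-induced subunit that directs protein phosphatase 1 to eIF2α, fell in all 3 comparisons, with log2 fold changes of −0.70 (SE 0.03, adjusted p = 1.97e-13), −1.07 (SE 0.04, adjusted p = 5.8e-17) and −0.39 (SE 0.04, adjusted p = 7e-09). PPP1R15B, its constitutive counterpart, rose in MDA-MB-231 KD (0.36) and fell in SUM159 KD (−0.35) and BT549 OE (−0.94). The other eIF2 kinases fell where they were called. EIF2AK2 (PKR, activated by double-stranded RNA) went from 3704 and 3570 normalized counts in BT549 EV to 730 and 704 in OE, a log2 fold change of −2.34 (SE 0.05, adjusted p = 4.66e-21). It also fell in SUM159 KD (−0.68) and in MDA-MB-231 KD (−0.14, adjusted p = 0.0461). In MDA-MB-231 KD it had the largest p of the 3 regulators called lower. With RLE size factors, DESeq2, no filter or the replicate number as a block, 2 regulators were called lower there. EIF2AK1 (HRI, inhibited by heme) was at 0.06 in MDA-MB-231 KD (adjusted p = 0.114) and fell in SUM159 KD (−0.27) and BT549 OE (−0.21). Among the smallest p of the list were also PRKRA at −0.34 in MDA-MB-231 KD, the phosphatase subunit PPP1CA at 0.67 in SUM159 KD and PPP1CC at −0.51 in BT549 OE.

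The third list held 12 genes known to be induced when eIF2α is phosphorylated. In MDA-MB-231 KD 10 were called lower (16.5% of all genes were) and 1 higher (21.2% of all genes), with a median log2 fold change of −0.44. The higher gene was CEBPB (0.24, adjusted p = 0.045), and no gene of the list was higher there with library size alone or DESeq2. In SUM159 KD 10 were lower and 1 higher (median −1.39; 31.4% and 28.6% of all genes), and in BT549 OE 11 were lower and none higher (median −0.96; 35.0% and 35.6% of all genes). The medians of all genes were 0.00, 0.00 and 0.02. ATF4, the transcription factor whose translation rises under eIF2α phosphorylation, was at 16479 and 16573 normalized counts in MDA-MB-231 EV and 15867 and 16093 in KD (log2 fold change −0.05, adjusted p of 0.192). It went from 18807 and 19693 to 9539.9 and 9571 in SUM159 KD (−1.01, SE 0.03, adjusted p = 8.23e-19) and from 4761 and 4572 to 2802 and 2776 in BT549 OE (−0.74, SE 0.03, adjusted p = 2.51e-15). DDIT3, which encodes the stress factor CHOP, fell in all 3 comparisons (−1.11, −2.00 and −0.84). ASNS, the asparagine synthetase gene, fell by 0.82 and CEBPG by 0.63 on the log2 scale in MDA-MB-231 KD. In SUM159 KD, CHAC1 fell by 3.43, ASNS by 2.73 and DDIT4 by 2.07. In BT549 OE, VLDLR fell by 3.15, DDIT4 by 1.74 and SESN2 by 1.71. VLDLR, the lipoprotein receptor gene, was the listed gene that rose in SUM159 KD, from 40.4 and 44.2 to 168 and 135 normalized counts (log2 fold change 1.83, SE 0.17, adjusted p = 2.78e-09).

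**Figure D5:**
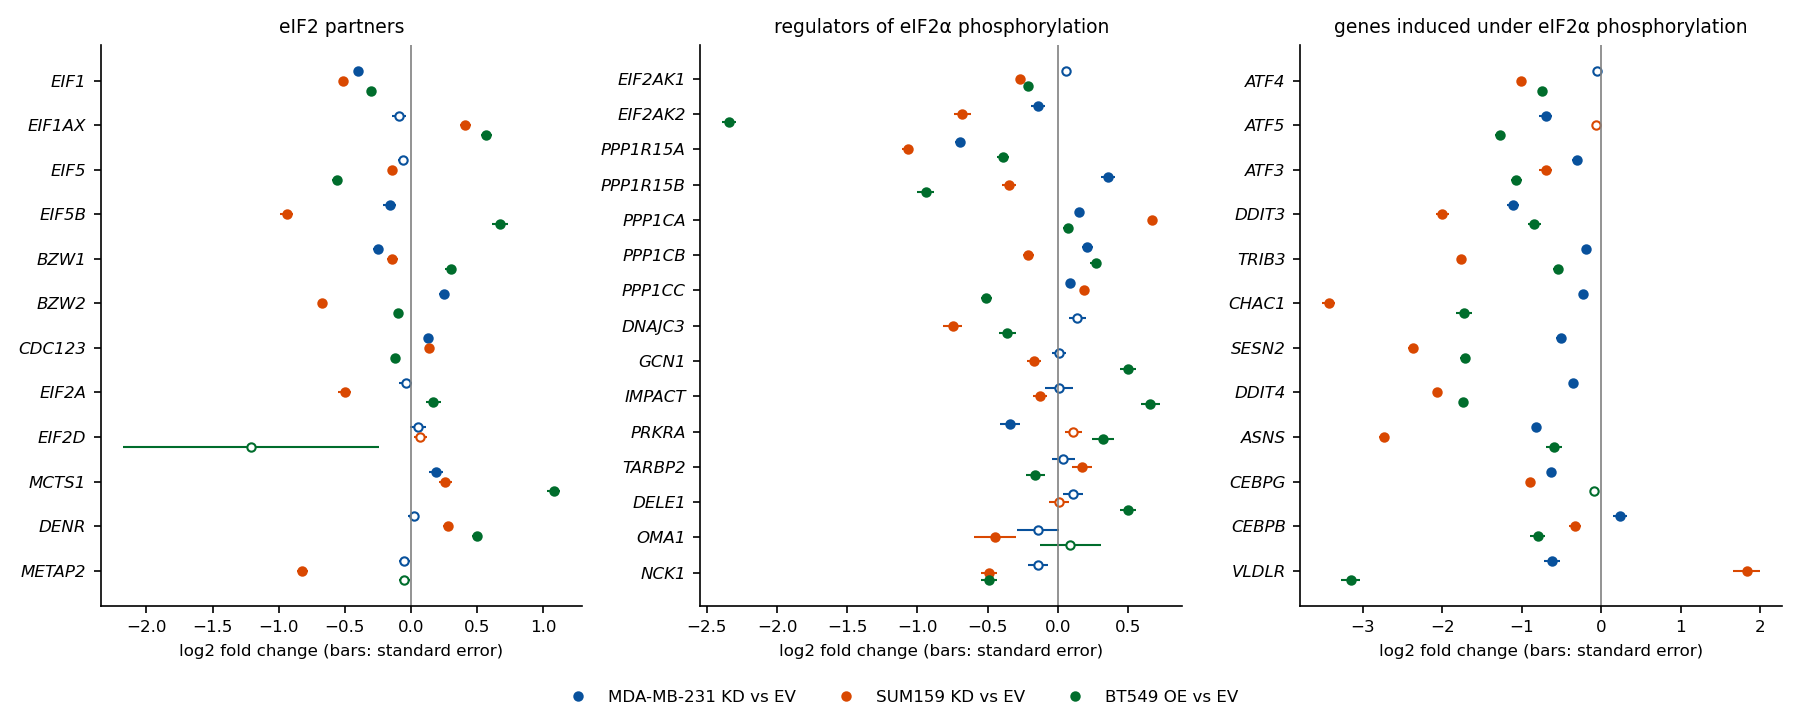
Log2 fold changes with standard errors of the 12 partners, 15 regulators and 12 induced genes in the 3 comparisons; filled points are called and open points are not. In the right panel most points lie left of 0 in every comparison, with VLDLR at 1.83 in SUM159 KD and CEBPB at 0.24 in MDA-MB-231 KD as the called exceptions.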

How the data were processed

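Polysome-associated RNA of 12 libraries was measured by RNA sequencing. Per the labels and the paper's methods, the authors used Trimmomatic for trimming, HISAT2 with GRCh38 for alignment, SAMtools for removing duplicates and Partek for the later steps. The counting tool is not given in the sources used here. The labels describe a poly(A)-enriched kit and the methods an rRNA-depleted stranded kit. Values deposited for each Ensembl transcript are expected counts that were not normalized. In the MDA-MB-231 and SUM159 columns 5.08% of rows carry a missing mark, so the unit of these deposited columns was recorded as other, and marked cells were counted as 0. The table lists no transcript at 0 in all 4 BT549 libraries, so transcripts not detected there are not analysed here.

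Transcripts were matched to GENCODE 44 without version (79.6% matched), summed per symbol, rounded, filtered with filterByExpr and scaled by TMM. They were tested with edgeR 4.0.16 (quasi-likelihood, R 4.3.3) in 1 model of 6 group means, with Benjamini-Hochberg adjustment over 16538 genes and calls at an adjusted p under 0.05. The same fit was run on 64066 transcripts, and the scripts were tested on simulated data. Standard errors were taken from the fold change and its F statistic. Tables were prepared with Python 3.11.15 and figures drawn with matplotlib 3.10.9. TPM used annotated lengths. Depths of 22954226 to 27434677 counts bound the precision, and p-values cover these libraries only.

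The members and gene lists were chosen with earlier results of these data known. All members were named, with TRMT112, EIF2AK1, EIF2AK2, EIF5, CDC123, EIF2A, PPP1R15A, PPP1R15B, ATF4, DDIT3, the 3 called genes with the smallest p of each list and transcripts with at least 10% of a member's counts. CEBPB, EIF2D, RALY and other genes outside this rule were named after their values were seen. Alternatives were RLE factors, library size alone, DESeq2 1.42.0, other filters, the replicate number as a block, fits of only the groups compared, other transcript sets, shorter lengths and leaving out each replicate.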

Additional observations from a re-analysis of the deposited data

Results flagged for a closer look

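The effect of TRMT112 KD differed between MDA-MB-231 and SUM159 for 8 members by the interaction contrast of the edgeR fit. The log2 fold change in MDA-MB-231 minus that in SUM159 was 0.46 for EIF2S1, 0.56 for EIF2S2, 0.72 for EIF2S3, 0.21 for EIF2B2, 0.33 for EIF2B3, 1.20 for EIF2B4, 0.84 for EIF2B5 and −0.35 for EIF2AK3. Among all genes 50.9% differed by the same contrast. EIF2B4 had the largest difference of the members, with log2 fold changes of 0.13 in MDA-MB-231 KD and −1.07 in SUM159 KD, and EIF2AK3 was the member with the larger rise in SUM159 KD.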

How the results depend on the processing

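Among the calls, scaling by library size alone moved the most results. In MDA-MB-231 KD it left 1 member higher and 3 lower, 1 partner higher and 7 lower, 2 regulators higher and 0 of the phosphorylation-induced genes higher. Between BT549 EV and MDA-MB-231 EV it gave 1 member higher and 8 lower, and between BT549 EV and SUM159 EV 1 higher. It also turned EIF2B2 between BT549 EV and MDA-MB-231 EV (−0.11) and EIF2S1 between BT549 EV and SUM159 EV (−0.19). With protein-coding transcripts only, 2 members were lower in MDA-MB-231 KD, EIF2S1 between BT549 EV and SUM159 EV was −0.13, and the difference of the KD effects of EIF2B2 was −0.07. A minimum mean of 50 counts also gave 2 lower members in MDA-MB-231 KD, and leaving out each replicate gave 1 to 2, the added member being EIF2B2 without MDA-MB-231 KD replicate 2. DESeq2 gave 0 induced genes higher in MDA-MB-231 KD. The cause was not tested. The deviations of same-numbered libraries had correlations between −0.03 and 0.037 across genes, so no large shift shared by replicate number was seen. These correlations cannot tell whether same-numbered libraries were handled together, and the sources used here do not say. With the replicate number as a block, 0 induced genes were called higher in MDA-MB-231 KD, 3508 genes were higher and 2709 lower there, and EIF2AK4 became called when the KD effects of both lines were compared (0.11, adjusted p = 0.043) and between BT549 EV and MDA-MB-231 EV (−0.08, adjusted p = 0.0439). Of the other counts, 314 stayed within 1.5 times of the values given. Levels per length were less stable. The levels of 10 members in 6 groups were recomputed with lengths less 200 bases and with protein-coding transcripts only. In 104 cases, which were most of them, the level moved by more than the SD of its 2 libraries.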

Other observations

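EIF2D, which encodes a factor that can deliver the initiator tRNA without eIF2, was close to absent from the BT549 libraries. It had 3 and 2 counts in BT549 EV and 1 count in each OE library, against 1027 to 2163 counts in the 8 libraries of the other lines. Its partners in structure, MCTS1 and DENR, which together resemble EIF2D, rose in BT549 OE by 1.08 (SE 0.05) and 0.50 (SE 0.04) on the log2 scale. In SUM159 KD they rose by 0.26 and 0.28, and EIF2D was at 0.07 (adjusted p = 0.258). In MDA-MB-231 KD, MCTS1 rose (0.19, adjusted p = 0.00376) and DENR was at 0.02 (adjusted p = 0.792).

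Among the regulators, GCN1, which encodes the activator of GCN2, and IMPACT, which encodes its inhibitor, both rose in BT549 OE, by 0.50 (SE 0.06) and 0.66 (SE 0.07) on the log2 scale, beside EIF2AK4 itself at 0.49. Both fell in SUM159 KD, by 0.17 (adjusted p = 0.00335) and 0.13 (adjusted p = 0.0464), where EIF2AK4 was at −0.05. DELE1, the mitochondrial stress messenger to HRI, rose in BT549 OE (0.50, SE 0.06) and was at 0.01 in SUM159 KD (adjusted p = 0.967). DNAJC3, an inhibitor of PERK and PKR, fell in BT549 OE (−0.36, SE 0.06) and SUM159 KD (−0.75, SE 0.07). In MDA-MB-231 KD, GCN1 was at 0.01, IMPACT at 0.01, DELE1 at 0.11 and DNAJC3 at 0.14, and none of them was called. These genes were named after their values were seen.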
